A study of Mus musculus with 8 samples.

Results

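The transcription factors Snai1, Snai2, Twist1, Twist2, Zeb1, Zeb2, Prrx1 and Foxc2, which drive epithelial-to-mesenchymal transition (EMT), were examined in the retinal pigment epithelium (RPE) of Bbs8 knockout mice. They were taken by gene symbol and are 8 of the 31053 genes in the count tables. Bbs8, annotated as Ttc8, encodes a subunit of the BBSome, a complex that moves cargo through the primary cilium. QuantSeq libraries, in which each read comes from the 3′ end of an mRNA, were made from eyecups at postnatal day 11. Both groups were untreated mice of strain C57/Bl6. The 4 control animals were wild type (Bbs8+/+), and the 4 knockout animals (Bbs8-/-) were littermates that lacked Bbs8 in every tissue, so that the loss was not limited to the RPE. An eyecup is what remains of the eye once cornea, lens, retina and optic nerve are taken off, and it holds choroid and sclera together with the RPE.

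During EMT, epithelial cells give up their junctions and apical-basal polarity and acquire a migratory, matrix-producing state. The SNAI, ZEB and TWIST proteins bind short DNA elements called E-boxes and shut down junction genes such as Cdh1, which encodes E-cadherin. PRRX1 and FOXC2 are homeodomain and forkhead factors of the embryonic mesenchyme. The RPE is an epithelial monolayer that can lose its epithelial state after injury or detachment, and the study asked whether loss of a ciliary gene brings on EMT-like traits there. In the eye these factors are also used by cells that normally are not epithelial, such as fibroblasts, and Zeb2 serves neural crest derivatives that include melanocytes and Schwann cells.

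The E-box bound by the SNAI and ZEB repressors is CACCTG, or CAGGTG read from the opposite strand, and it is a form of the general E-box CANNTG. Promoters, taken as 250 bases before to 50 bases after a RefSeq start site on GRCm38.p6, were found for 5 of the 8 factors (Snai1, Twist1, Twist2, Zeb2 and Prrx1), with 4 windows for Zeb2 and 8 windows in all. Searched on both strands, CACCTG was present in 1 of these windows, that of Snai1, where it is the only CANNTG and begins at -126 from the start site. Among all 32817 promoter windows of the same length, 20.22% held CACCTG or CAGGTG and 72.32% held CANNTG. The Snai1 window is shown with its E-box in capitals, since it is the site class its own protein recognises. It is followed by the outermost Zeb2 window, since Zeb2 was the factor whose level changed. The Zeb2 window holds no CANNTG, and a match or its absence describes these letters only.
Snai1 promoter, chr2:167537945-167538244, plus strand: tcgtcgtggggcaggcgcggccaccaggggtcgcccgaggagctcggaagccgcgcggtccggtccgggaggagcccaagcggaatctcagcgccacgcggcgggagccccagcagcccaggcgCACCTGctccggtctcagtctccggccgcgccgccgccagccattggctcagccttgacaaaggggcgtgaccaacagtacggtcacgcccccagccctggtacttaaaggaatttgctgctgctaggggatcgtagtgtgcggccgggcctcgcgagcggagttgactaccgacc
Zeb2 promoter, chr2:45117393-45117692, minus strand: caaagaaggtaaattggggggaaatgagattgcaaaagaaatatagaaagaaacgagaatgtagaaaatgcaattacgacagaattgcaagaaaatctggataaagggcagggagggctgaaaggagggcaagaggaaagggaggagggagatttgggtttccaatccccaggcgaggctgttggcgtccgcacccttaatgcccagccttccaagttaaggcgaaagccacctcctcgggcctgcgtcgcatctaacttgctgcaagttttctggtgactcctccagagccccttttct

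Total gene counts ranged from 2159295 to 2884983 in the Bbs8+/+ libraries and from 1636725 to 2179761 in the Bbs8-/- libraries, so that 3 counts, the smallest level taken as detected, corresponded to between 1.04 and 1.83 CPM (counts scaled to a common library total). No pair of files held identical values. Levels below are CPM after TMM normalization, which scales the libraries to each other. Ttc8 itself was lower in Bbs8-/-, with a log2 fold change of -1.95 and a standard error (SE) of 0.317 (edgeR quasi-likelihood FDR 2.74e-06). All 10 RPE markers were measured above the filter, with summed levels of 17677 to 18710 CPM in Bbs8+/+ and 19136 to 19503 CPM in Bbs8-/-. Uniquely aligned reads that the counting placed in no annotated feature made up 42.1% to 43.4% in Bbs8+/+ and 44.1% to 44.4% in Bbs8-/-. The genotypes did not overlap. The feature type and strand setting of the counting are not given in the sources used here, so such reads may still lie within genes.

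Of the 8 factors, Zeb2 was down-regulated in Bbs8-/- eyecups, with a change in its mean of -18.9%, and the other 7 were not past the threshold of a false discovery rate (FDR) of 0.05. All 8 passed the filter on low counts (at least 1 CPM in at least 4 libraries). The count was 1 lower and 0 higher, against 1.14% of the 13813 tested genes called lower, 1.1% called higher and 2.24% called in either direction by the edgeR quasi-likelihood test. At an unadjusted p under 0.05, 2 factors were lower and 0 were higher, against 6.6% of all tested genes lower, 6.38% higher and 13% in either direction, and neither DESeq2 nor the edgeR likelihood ratio test called any of them higher. Of all genes with an adjusted p, DESeq2 called 0.946% lower and 1.04% higher, and the likelihood ratio test called 1.1% lower and 1.02% higher. For 1 of the 8 factors, no Bbs8-/- library overlapped the controls, against 7.38% of all tested genes. The median log2 fold change of the 8 was -0.07, with 7 below 0, while the median of all tested genes was -0.0041. With 1 library left out, the median of the 8 ranged from -0.11 to -0.04. With a single gene called, these counts describe Zeb2 rather than the group.

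**Figure D1:**
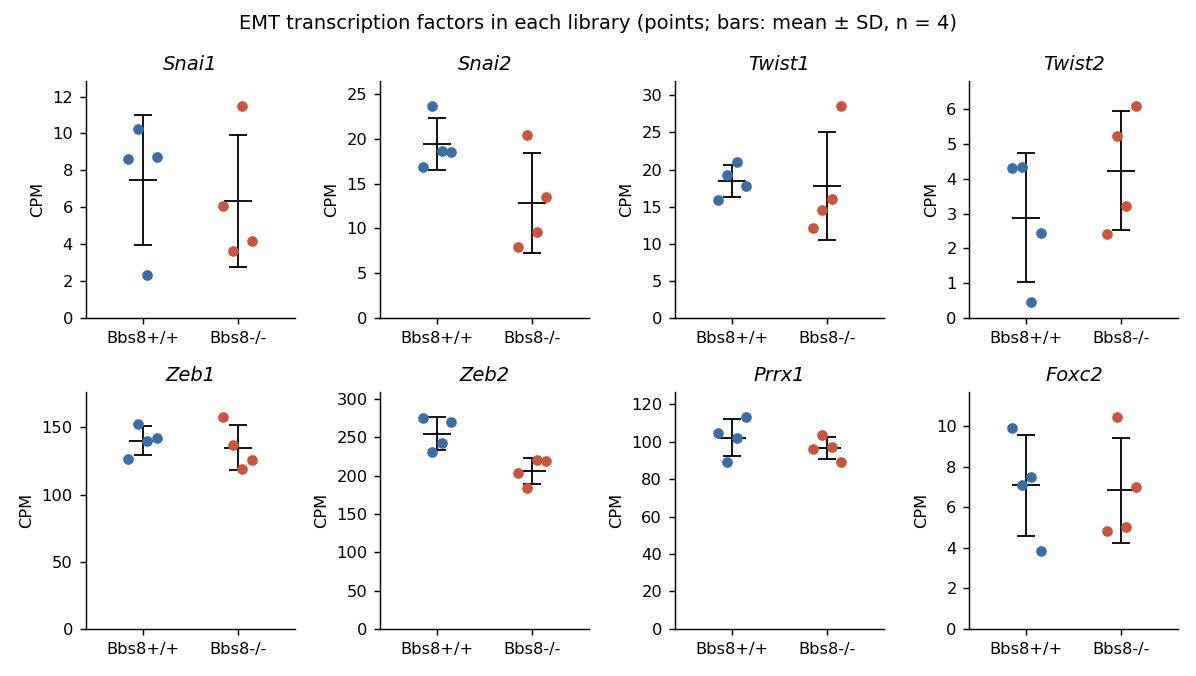
Level of each EMT transcription factor in CPM (y axes from 0) in the 4 Bbs8+/+ (blue) and 4 Bbs8-/- (red) libraries, with bars for the mean ± SD. Only for Zeb2 do all 4 Bbs8-/- points lie below all 4 Bbs8+/+ points.

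Zeb2 (ENSMUSG00000026872, chr2:44983632-45117395 on the minus strand, mm10) encodes a zinc finger E-box binding repressor. Its level was 275, 230, 242 and 270 CPM in Bbs8+/+ replicates 1 to 4 and 203, 184, 220.1 and 219 CPM in Bbs8-/- replicates 1 to 4. Every Bbs8-/- library lay below every Bbs8+/+ library, although the lowest Bbs8+/+ value and the highest Bbs8-/- value were close. The means were 254 ± 21.7 and 206 ± 16.9 CPM (SD, n = 4 each). The log2 fold change was -0.30 with an SE of 0.0760 and a 95% interval of -0.45 to -0.15 (edgeR quasi-likelihood FDR 0.00996), and it ranked 173rd by p-value among all tested genes. Zeb2 rested on 335 to 774 counts per library, the most of any of the factors. In these bulk samples, fewer cells that express a gene and less RNA per cell cannot be told apart.

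The call on Zeb2 depended on single libraries, while its direction did not. Its log2 fold change was -0.26 (FDR 0.0722) without Bbs8+/+ replicate 1, -0.27 (FDR 0.0600) without Bbs8+/+ replicate 4 and -0.25 (FDR 0.0957) without Bbs8-/- replicate 2, by the same edgeR test. Leaving out any of the other 5 libraries gave an FDR of at most 0.0420. Under every change of normalization, filter, test or depth that was tried, Zeb2 was called, with an FDR of 0.0262 by DESeq2. The antisense gene Zeb2os (chr2:45110707-45114087) overlaps Zeb2 near its 5′ end, 127075 bases from the 3′ end where QuantSeq reads of Zeb2 arise. It had 93 counts in all libraries together against 4152 for Zeb2, and its log2 fold change was -0.17 with an SE of 0.457 (edgeR FDR 0.928). The strand setting of the counting is not given in the sources used here, so reads in the shared stretch cannot be assigned to a strand.

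**Figure D2:**
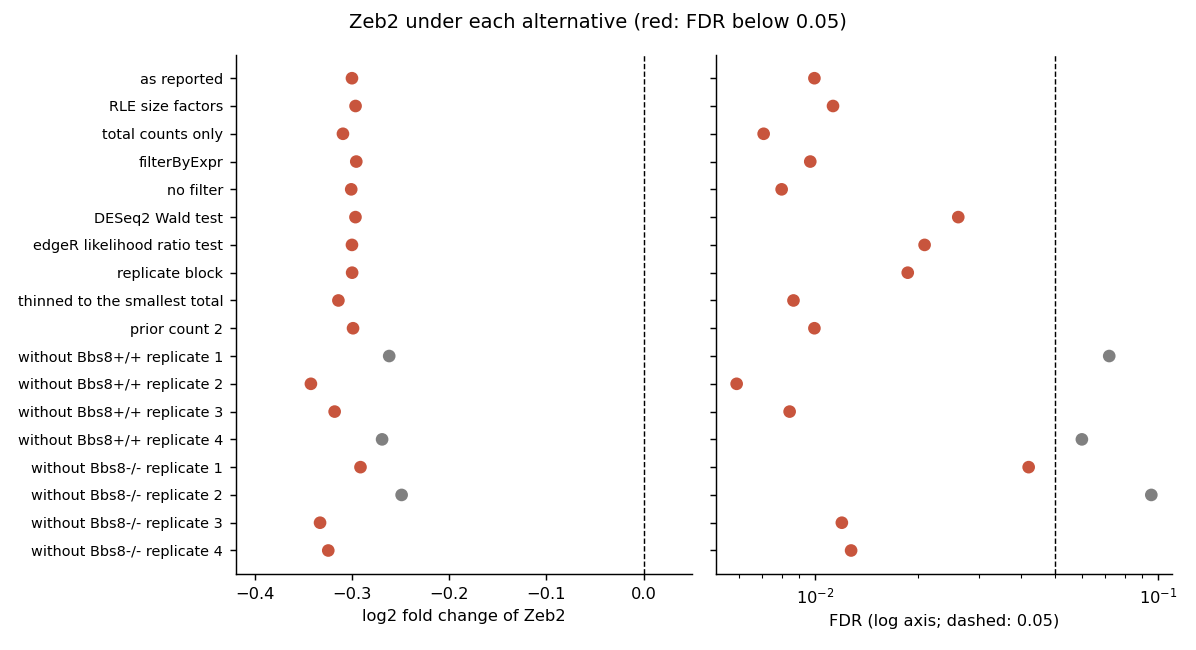
Log2 fold change of Zeb2 (left) and its FDR on a log axis (right) as reported and under each of the 17 alternatives, in red where the FDR is below 0.05. All values lie between -0.34 and -0.25, and 3 alternatives, each without 1 library, fall short of the threshold.

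Zeb1, the paralogue of Zeb2 with the same type of DNA-binding domains, did not pass the threshold. Zeb1 (ENSMUSG00000024238, chr18:5591860-5775467) was at 126, 153, 140 and 142 CPM in Bbs8+/+ and at 158, 137, 119 and 126 CPM in Bbs8-/-. The highest and the lowest library were both Bbs8-/-, and the genotypes overlapped throughout. The log2 fold change was -0.06 with a 95% interval of -0.25 to 0.12 (edgeR FDR 0.849), which in fold terms spans 0.844 to 1.09. The interval of Zeb1 therefore reaches into that of Zeb2. With 1 library left out, the Zeb1 value ranged from -0.14 (without Bbs8-/- replicate 1) to -0.0065 (without Bbs8-/- replicate 3).

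Whether Zeb2 changed differently from Zeb1 was tested by their count ratio within each library, which no scaling of libraries can alter. The ratio of Zeb2 to Zeb1 counts was 2.18, 1.51, 1.73 and 1.90 in Bbs8+/+ and 1.29, 1.34, 1.85 and 1.73 in Bbs8-/-. The 2 lowest ratios were Bbs8-/-, and the others were mixed. The mean log2 ratio differed by -0.24 between the genotypes, with SDs of 0.223 and 0.260 (two-sided exact permutation p = 0.200, adjusted p = 0.429 over 3 paralogue pairs). The smallest p this design allows is 0.0286 before adjustment and 0.0857 after it for 1 pair alone, so the adjusted test could not have passed for a single pair. The same test gave a difference of -0.49 for Snai2 to Snai1 (exact permutation p = 0.571, adjusted p = 0.571) and of 1.01 for Twist2 to Twist1 (exact permutation p = 0.286, adjusted p = 0.429). With 1 library left out, the difference ranged from -0.33 to -0.15 for Zeb2 to Zeb1 and from -0.96 (without Bbs8-/- replicate 2) to -0.01 (without Bbs8+/+ replicate 3) for Snai2 to Snai1. For Twist2 to Twist1 it ranged from 0.21 without Bbs8+/+ replicate 3, the library with 1 Twist2 count, to 1.41 without Bbs8+/+ replicate 1. These ratio tests were chosen after the values had been seen.

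Snai1 and Snai2 encode the Snail and Slug zinc finger repressors. Snai2 (ENSMUSG00000022676, chr16:14705852-14709385) was at 16.8, 23.6, 18.7 and 18.5 CPM in Bbs8+/+ and at 7.88, 20.4, 9.63 and 13.5 CPM in Bbs8-/-. In 3 of 4 Bbs8-/- libraries it lay below all controls, and Bbs8-/- replicate 2 lay above 3 of them. Its log2 fold change was -0.59 with an SE of 0.250 and a 95% interval of -1.08 to -0.09, larger in size than that of Zeb2, but it did not pass after adjustment over all genes (edgeR unadjusted p = 0.0203, FDR 0.268). With 1 library left out the value ranged from -0.89 (without Bbs8-/- replicate 2, edgeR FDR 0.0764) to -0.43 (without Bbs8-/- replicate 1, edgeR FDR 0.559). At 13 to 60 counts per library, Snai2 was measured less precisely than Zeb2.

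Snai1 (ENSMUSG00000042821, chr2:167538195-167542814) was read at only 5 to 26 counts per library. Its level was 8.62, 10.2, 2.33 and 8.73 CPM in Bbs8+/+ and 6.06, 3.65, 11.5 and 4.20 CPM in Bbs8-/-. The lowest value came from Bbs8+/+ replicate 3 and the highest from Bbs8-/- replicate 3, so the genotypes overlapped fully. The log2 fold change was -0.24 with an SE of 0.384 (edgeR FDR 0.866). The 95% interval in fold terms was 0.500 to 1.43, and at this depth changes within these bounds could not be told from none. With 1 library left out the value ranged from -0.72 (without Bbs8-/- replicate 3) to -0.05 (without Bbs8-/- replicate 2), with edgeR FDR values of 0.583 to 0.980.

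Twist1 and Twist2 are basic helix-loop-helix factors of the mesenchyme and the neural crest. Twist1 (ENSMUSG00000035799, chr12:33957671-33959829) was at 15.9, 19.3, 21.0 and 17.8 CPM in Bbs8+/+ and at 12.1, 14.6, 16.0 and 28.5 CPM in Bbs8-/-. The 2 lowest values and the highest were all Bbs8-/-, with an SD of 2.16 CPM among controls and 7.29 CPM among knockouts. Its log2 fold change was -0.03 with a 95% interval of -0.50 to 0.43 (edgeR FDR 0.975). Bbs8-/- replicate 4 set the high end. Leaving out 1 library gave values from -0.36 (without Bbs8-/- replicate 4, edgeR FDR 0.667) to 0.10 (without Bbs8-/- replicate 1, edgeR FDR 0.938).

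Twist2 (ENSMUSG00000007805, chr1:91801461-91848028) was the single factor with a log2 fold change above 0, and also the one with the fewest counts. It was at 4.31, 4.32, 0.467 and 2.44 CPM in Bbs8+/+ and at 2.43, 5.22, 3.21 and 6.07 CPM in Bbs8-/-, from 1 to 13 counts per library. Bbs8+/+ replicate 3, with 1 count, stood lowest, and the other libraries were mixed. The log2 fold change was 0.54 with an SE of 0.555 (edgeR FDR 0.763), and the 95% interval in fold terms, 0.680 to 3.12, was the widest of the 8. Leaving out 1 library gave values from 0.23 (without Bbs8+/+ replicate 3) to 0.80 (without Bbs8+/+ replicate 2), none past the threshold.

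Prrx1 and Foxc2 act in mesenchyme-derived tissues such as connective tissue and vessels. Prrx1 (ENSMUSG00000026586, chr1:163245119-163313710) was at 105, 89.3, 102 and 113 CPM in Bbs8+/+ and at 95.8, 103, 97.2 and 89.2 CPM in Bbs8-/-. The libraries overlapped, and the log2 fold change was -0.09 with a 95% interval of -0.29 to 0.12 (edgeR FDR 0.811). With Zeb1 it was among the factors for which the interval left the least room for a change, from 0.816-fold to 1.09-fold. With 1 library left out, the Prrx1 value ranged from -0.14 (without Bbs8+/+ replicate 2) to -0.03 (without Bbs8+/+ replicate 4). The lincRNA gene Gm26523 lies within Prrx1 on the same strand and had 139 counts in all libraries together, and how reads were split between the pair is uncertain.

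Foxc2 (ENSMUSG00000046714, chr8:121116171-121118895) was at 9.91, 7.08, 7.47 and 3.84 CPM in Bbs8+/+ and at 4.85, 10.4, 5.04 and 7.004 CPM in Bbs8-/-. Both genotypes covered nearly the same range. The log2 fold change was -0.03 with an SE of 0.381 (edgeR FDR 0.987). With 8 to 23 counts per library, its 95% interval in fold terms was 0.580 to 1.65. Foxc2 lies within the longer gene model Gm20388, which had 0 counts.

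**Figure D3:**
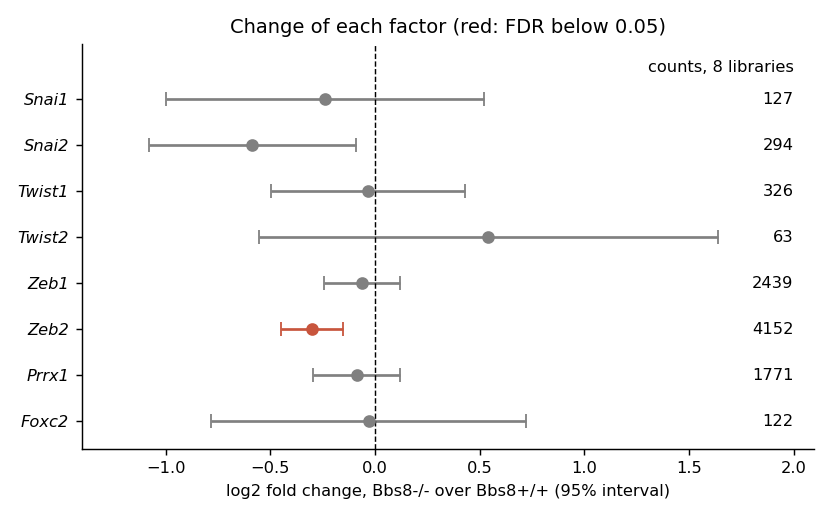
Log2 fold change of each factor (Bbs8-/- over Bbs8+/+, x axis) with its 95% interval and its counts summed over the 8 libraries at the right, in red for Zeb2, the factor past FDR 0.05. Intervals are narrow for Zeb2, Zeb1 and Prrx1 (1771 to 4152 counts) and wide for Twist2, Foxc2 and Snai1 (63 to 127 counts).

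Summed over the 8 factors, the level ranged from 533 to 577 CPM in controls and from 478 to 493 CPM in Bbs8-/-. Without Zeb2 the sum of the other 7 was 287 to 306 CPM and 262 to 294 CPM, and the genotypes overlapped. Among the 6625 other genes with a mean of at least 20 CPM, the 3 whose log2 level followed Zeb2 most closely over the 8 libraries were Pik3r1 (Pearson r = 0.975), which encodes a regulatory subunit of phosphoinositide 3-kinase, Sri (r = 0.968), which encodes the calcium-binding protein sorcin, and Col14a1 (r = 0.942), a fibril-associated collagen. Once each genotype was centred on its own mean, r was 0.929, 0.899 and 0.815. The points share libraries and depth, and the 3 genes are the highest of many, so these values are a description. None of the 3 passed the threshold themselves, with log2 fold changes of -0.23, -0.08 and -0.13 (edgeR FDR 0.0909, 0.842 and 0.328).

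Summed levels of several lists of cell type markers were lower in Bbs8-/- libraries, and those of others were higher. Beside the counts below, 1.14% of all tested genes were called lower and 1.1% higher. At an unadjusted p under 0.05 the shares were 6.6% lower and 6.38% higher. Of genes with an adjusted p, DESeq2 called 0.946% lower and 1.04% higher. Of 11 melanocyte markers, 7 were lower and 0 higher, with 7 lower and 0 higher also at an unadjusted p under 0.05 and by DESeq2, and they summed to 14323 to 15006 CPM in Bbs8+/+ libraries and to 11893 to 12444 CPM in Bbs8-/- libraries. The melanosome gene Mlana changed by -0.47 on the log2 scale (edgeR FDR 7.54e-07), while Tyr, Kit and Sox10 were not past the threshold. Most melanosome genes are used by the RPE as well. Of 8 Schwann cell markers, 7 were tested and 1, S100b, was lower, with sums of 604 to 696 CPM and 533 to 592 CPM, while 2 were lower at an unadjusted p under 0.05 and 1 by DESeq2.

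In the pericyte and smooth muscle list, 2 of 9 genes were lower, with sums of 1310 to 1370 CPM and 1145 to 1223 CPM. DESeq2 called 1 of them lower, and 4 were lower and 1 higher at an unadjusted p under 0.05. The pericyte gene Rgs5 among them changed by -0.26 on the log2 scale (edgeR FDR 8.60e-04). Beside these counts and those below, 1.14% of all tested genes were called lower and 1.1% higher. At an unadjusted p under 0.05 the shares were 6.6% and 6.38%, and by DESeq2 0.946% and 1.04%. In the fibroblast and sclera list, 3 of 12 genes were lower and 1 higher, with sums of 34948 to 36717 CPM and 27677 to 28778 CPM, and a median log2 fold change of -0.08 with 7 genes below 0 and 5 above. At an unadjusted p under 0.05 the counts were 4 lower and 3 higher, and DESeq2 called 3 lower and 1 higher. The 3 lower genes, the collagens Col1a1, Col1a2 and Col3a1, carried the lower sum. Of the other 9 genes 4 were below 0 and 5 above, and they summed to 6659 to 7057 CPM in Bbs8+/+ and to 7113 to 7542 CPM in Bbs8-/-. This split was made by the same values, so the higher remaining sum is a description with no test. Photoreceptor markers were lower for 2 of 10 genes, with sums of 464 to 515 CPM and 354 to 427 CPM, and the counts were 4 lower and 2 higher at an unadjusted p under 0.05 and 2 and 0 by DESeq2. Sums were higher in Bbs8-/- without overlap for the RPE list (1 of 10 genes called higher, 2 by DESeq2), the macrophage list (1 of 12; 495 to 551 CPM and 571 to 627 CPM) and the lens list (6 of 10; 55.8 to 65.4 CPM and 210.1 to 240.2 CPM). For endothelium and skeletal muscle the sums overlapped, with 1 of 10 genes called higher in each. At an unadjusted p under 0.05, the counts lower and higher were 1 and 5 for RPE, 0 and 1 for macrophages and 0 and 7 for lens. They were 3 and 1 for endothelium and 1 and 1 for skeletal muscle. No marker on these 10 lists was at 0 in all libraries. The part of these cell types in the lower level of Zeb2 was not tested. Nor was that of the larger share of reads placed in no annotated feature.

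**Figure D4:**
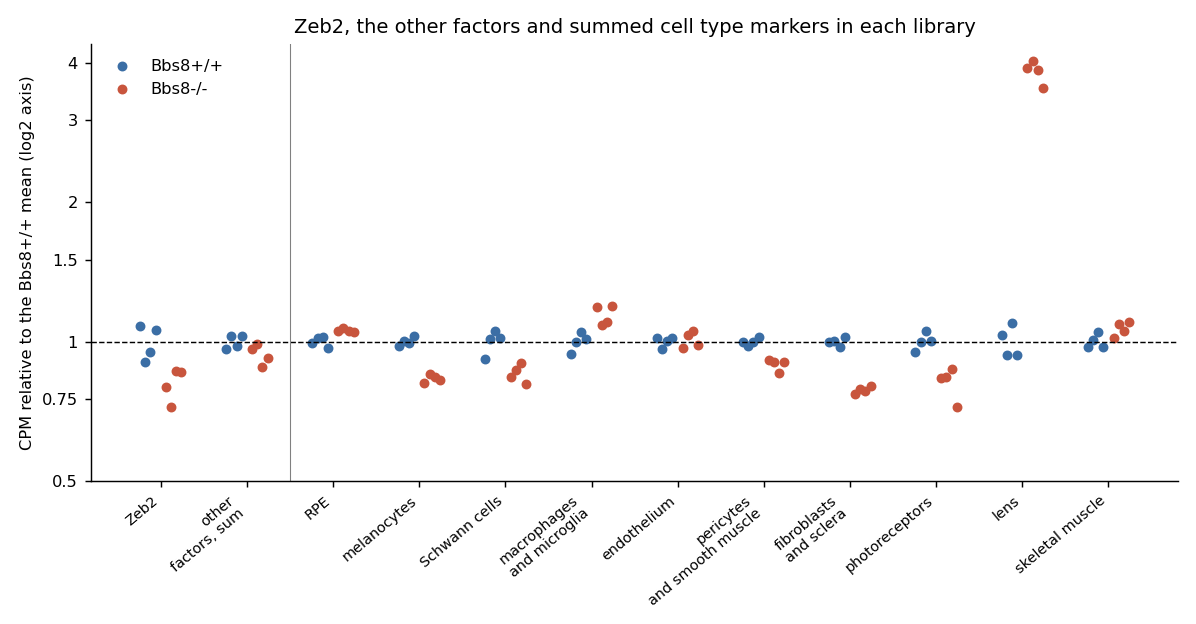
Level of Zeb2, of the other 7 factors summed and of 10 summed lists of cell type markers in each library, relative to the Bbs8+/+ mean on a log2 axis (blue Bbs8+/+, red Bbs8-/-). The red points of Zeb2, melanocytes, Schwann cells, pericytes and smooth muscle, fibroblasts and sclera, and photoreceptors lie below the blue points, and those of RPE, macrophages and lens lie above. For fibroblasts and sclera 3 collagen genes, singled out after their values were seen, carry the lower sum, and the summed level of the other 9 was higher in each Bbs8-/- library than in any control.

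Among other transcription factors that have been tied to EMT or to the neural crest, Sox9 and Ets1 were lower. Of 14 listed, 12 were tested, 2 passed the threshold as lower and 0 as higher, beside 1.14% and 1.1% of all tested genes. The list had a median log2 fold change of -0.26. A value below 0 was found for 10 of the 12 and for 50.5% of all tested genes. At an unadjusted p under 0.05 the counts were 4 and 0 of 12, where 6.6% and 6.38% of all tested genes passed, and DESeq2 called 1 lower and 0 higher. Sox9, which directs cartilage and neural crest programmes, was at 211, 241, 214 and 213 CPM in Bbs8+/+ and at 180, 168, 179.8 and 170.0 CPM in Bbs8-/-. The genotypes did not overlap, and the log2 fold change was -0.33 with an SE of 0.0791 (edgeR FDR 0.00429). The call was lost without Bbs8+/+ replicate 2 (edgeR FDR 0.0689). Ets1, an ETS-family factor of endothelium and mesenchyme, fell from 96.6 ± 13.7 to 72.4 ± 7.10 CPM (SD, n = 4 each; edgeR FDR 0.0297), with 1 overlapping library in each genotype, and 8 of 17 alternatives ended this call. Snai3, the third SNAI gene, had 1 count in all 8 libraries and was not tested.

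Among 20 co-repressors, dimer partners and stability factors, whose proteins act together with the 8 factors, 1 was higher and 0 were lower. Of all tested genes, 1.1% were called higher and 1.14% lower. All 20 were tested, with a median of -0.03 (-0.082 to -0.012 with 1 library left out). At an unadjusted p under 0.05, 2 were higher and 2 lower, beside 6.38% and 6.6% of all tested genes, while DESeq2 called 1 higher and 0 lower. Id1, which binds the E-protein partners of TWIST factors and keeps them from DNA, rose from 60.4 ± 6.17 to 81.0 ± 8.02 CPM (edgeR FDR 0.0324), and 7 of 17 alternatives ended this call. Ctbp2, a co-repressor recruited by ZEB proteins, was second by p-value with a log2 fold change of -0.34 and an SE of 0.126 (edgeR FDR 0.166).

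Of 10 regulators that hold cells in the epithelial state, 7 lay below the filter and 3 were tested. Grhl3, Ovol1 and Ovol2 had no count in any library. Taken singly, a library without a count allows up to 1.04 to 1.83 CPM at its depth, and the 8 together allow less. The edgeR test called 0 of the 3, where 2.24% of all tested genes were called. None was called by DESeq2 or under an unadjusted p of 0.05, where 13% of all tested genes were. The Krüppel-like factors Klf4 and Klf5 had log2 fold changes of -0.17 and -0.10 (edgeR FDR 0.611 and 0.855). Of 21 genes of the pathways that induce the 8 factors (TGF-β, BMP, Notch, Wnt and receptor tyrosine kinases), 1 was lower and 0 higher. The shares of all tested genes were 1.14% and 1.1%, and the list had a median of -0.0058. At an unadjusted p under 0.05 the counts were 5 and 0 of 21, beside the 6.6% and 6.38% of all tested genes, and DESeq2 called 1 and 0. Ctnnb1, which encodes β-catenin, a junction protein and Wnt effector, fell from 696 ± 24.0 to 588 ± 9.63 CPM (edgeR FDR 0.00207), a log2 fold change of -0.24. Tgfb3, a TGF-β ligand, was next with -0.31 (edgeR FDR 0.160).

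Among the epithelial genes that these repressors can silence, 18 of 23 were tested, 1 was lower and 1 was higher, against 1.14% and 1.1% of all tested genes, with a median log2 fold change of 0.05. The counts were also 1 and 1 at an unadjusted p under 0.05, beside 6.6% and 6.38% of all tested genes, and by DESeq2. With 1 library left out, the list median ranged from 0.06 (without Bbs8-/- replicate 1) to 0.17 (without Bbs8+/+ replicate 2). Each of these values lay above that of the full set. Those fits used a filter of at least 3 libraries, which can change the genes tested. Effects of library and filter on the median therefore cannot be told apart. Cdh1 was at 118, 99.1, 119.5 and 103 CPM in Bbs8+/+ and at 81.3, 80.4, 70.2 and 85.4 CPM in Bbs8-/-. The genotypes did not overlap, and the log2 fold change was -0.47 with an SE of 0.108 (edgeR FDR 0.00270). Krt18, an epithelial keratin, rose from 260 ± 10.7 to 310.3 ± 6.61 CPM (edgeR FDR 0.0185). This call was lost in 3 of 17 alternatives, without Bbs8+/+ replicate 1, Bbs8+/+ replicate 2 or Bbs8-/- replicate 1, with edgeR FDR values of 0.0663, 0.0915 and 0.0739. Tjp1, which encodes the tight junction protein ZO-1, had a log2 fold change of -0.13 with an SE of 0.126 (edgeR FDR 0.731), and Cldn19 was between 0 and 3.15 CPM in all libraries, near the smallest level the depth could show.

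Of 25 mesenchymal genes, all tested, 4 were lower and 2 higher, against 1.14% and 1.1% of all tested genes, with a median of -0.14. At an unadjusted p under 0.05 the counts were 7 and 2, where 6.6% and 6.38% of all tested genes passed, and DESeq2 called 4 lower and 1 higher. The matrix genes Col1a1, Col1a2 and Col3a1 changed by -0.42, -0.55 and -0.21 on the log2 scale (edgeR FDR 1.96e-25, 1.55e-36 and 1.70e-04). Mmp14, a membrane-bound matrix protease, changed by -0.36 (edgeR FDR 0.00210), and was not called without Bbs8+/+ replicate 2 (edgeR FDR 0.0536). Sparc, a matrix-binding glycoprotein, rose by 0.13 (edgeR FDR 0.00147), a call that the likelihood ratio test ended (FDR 0.225). Thy1, a surface protein of fibroblasts and neurons, rose by 0.76 (edgeR FDR 0.0455), a call that 9 of 17 alternatives ended. Of the 4 lower genes, the 3 collagens also stand on the fibroblast list.

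**Figure D5:**
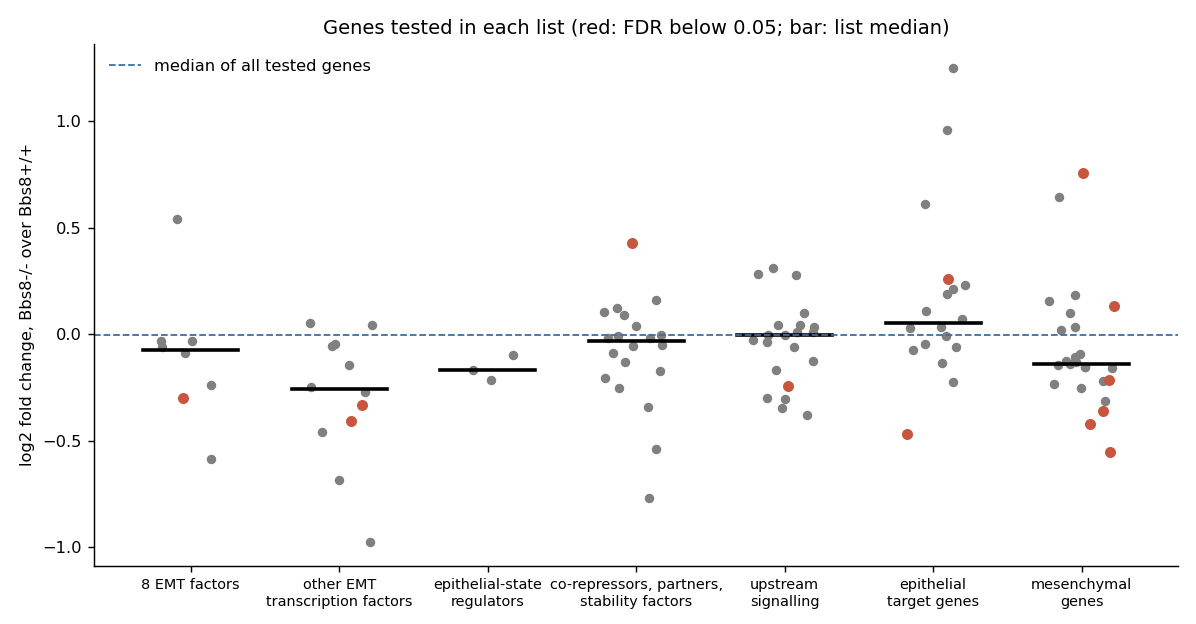
Log2 fold change (Bbs8-/- over Bbs8+/+) of the tested genes in the 8 EMT factors and 6 related lists, with genes past FDR 0.05 in red, list medians as black bars and the median of all tested genes as a dashed line. Medians run from -0.26 for other EMT transcription factors to 0.05 for epithelial target genes.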

How the data were processed

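QuantSeq 3′ mRNA libraries of RPE eyecups from 4 Bbs8+/+ and 4 Bbs8-/- mice were analysed, grouped by the labels. The deposited files held raw gene counts from uniquely aligned reads, made by the authors by trimming with BBDuk, alignment to mm10 with STAR and counting with htseq-count. Summary lines were left out. No molecular identifiers were named, so detection limits cover counting error only. Genes that reached 1 CPM in 4 or more libraries were tested in R 4.3.3 with the two-sided edgeR 4.0.16 quasi-likelihood F test (TMM, genotype only, Benjamini-Hochberg over all tested genes, FDR 0.05). Replicates were separate animals. An SE is the log2 fold change divided by the square root of F.

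Alternatives were RLE factors, total counts only, filterByExpr, no filter, DESeq2 1.42.0, a likelihood ratio test, the replicate number as a block, a prior count of 2, thinning to 1636725 counts and leaving out each library (filter of at least 3 libraries). Members and lists were chosen with earlier results of these data known. Genes named were the 8 factors, Ttc8, Cdh1, Tjp1, Cldn19, each list's genes past FDR 0.05 and its 2 smallest p-values, the 3 genes most like Zeb2, and defining cell markers. Zeb2os was added after its values were seen. Gene names and positions came from GENCODE M21. Some genes are not reported here and were left out of their lists. The procedure was tested on simulated counts.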

Additional observations from a re-analysis of the deposited data

Results flagged for a closer look

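Of 66 groups of 4 libraries examined (33 named genes in both genotypes), 4 had 1 library far from the other 3 by Dixon's criterion, which chance alone gives in about 1 in 20 groups, and none of them belonged to the 8 EMT factors. Sox9 was at 241 CPM in Bbs8+/+ replicate 2 and at 211 to 214 CPM in the other controls. Mmp14 was at 184 CPM in Bbs8-/- replicate 2 and at 158 to 161 CPM in the others. Ctnnb1 was at 660 CPM in Bbs8+/+ replicate 3, with 707 to 708 CPM in the other controls, and at 602 CPM in Bbs8-/- replicate 3, with 582 to 585 CPM in the others.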

How the results depend on the processing

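Calls on 8 of the 16 named genes past the threshold held in every alternative, those on 8 were lost in at least 1, and 0 reversed. The count of factors called lower was between 0 and 1 with 1 library left out (0 without Bbs8+/+ replicate 1, Bbs8+/+ replicate 4 or Bbs8-/- replicate 2) and 1 elsewhere, and 0 were called higher throughout. With 1 library left out, Sox9 (FDR 0.0689) and Mmp14 (FDR 0.0536) lost their calls without Bbs8+/+ replicate 2, and Krt18 (FDR up to 0.0915) without Bbs8+/+ replicates 1 or 2 or Bbs8-/- replicate 1. Ets1 (FDR up to 0.134) kept its call only without replicate 4 of either genotype, Id1 (FDR up to 0.143) only without Bbs8+/+ replicate 3 or Bbs8-/- replicate 2, and Thy1 (FDR up to 0.235) only without Bbs8+/+ replicate 3. Among other alternatives, Ets1 was not called by DESeq2 or with the block, Id1 after thinning, Thy1 without the filter or by DESeq2, and Sparc by the likelihood ratio test (FDR 0.225). Of 17 named genes not past the threshold, 1 (Ctbp2) came past it in 2 alternatives and 4 reversed. Foxc2 was 0.27 after thinning. With 1 library left out, log2 fold changes ranged from -0.30 to 0.18 for Foxc2, -0.36 to 0.10 for Twist1, -0.71 to 0.86 for Cldn19 and -0.50 to 0.19 for Zeb2os. Medians of the 8 factors and the 6 related lists kept their sign except that of upstream signalling, which ranged from -0.048 to 0.040. Medians of the marker lists were not computed under the alternatives. The cause was not tested.

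A fit that blocked on replicate number called 134 genes higher and 129 lower. In it, Zeb2 was -0.30 (FDR 0.0186), Snai2 -0.62 and Ttc8 was called. Deviations of same-numbered libraries correlated at -0.0554 to 0.0199 over 6626 genes, so no pairing by number was seen. A pairing that left no trace in expression would give the same values. The block ended no call on a factor. Depth limits Snai1, Twist2 and Foxc2 most.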
